A study of Mus musculus with 120 samples.

Results

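Small RNA was followed along the last steps of sperm formation in the mouse testis, from primary spermatocytes through early and late round spermatids to testicular sperm. The libraries were chosen by their labels alone: 7 of the 120 samples of the series, namely 1 library of primary spermatocytes, 1 of early round spermatids, 1 of late round spermatids and 4 of testicular sperm. All came from mice on a control diet, with tissue taken at 8 to 12 weeks of age. RNA shorter than 40 nt was cut from a gel and cloned, so gene and repeat reads stand for fragments. The labels give no strain, no genotype and no method for separating the cells, and they do not say whether the 4 testicular sperm libraries are separate animals. They are called testicular sperm 1 to 4 here. The title of the first is marked 2X, that of the second NaCl, that of the third "fusion untreated" and that of the fourth somatic, and they may differ in preparation. The titles of the 3 germ cell libraries and of testicular sperm 2 and 4 share a number, and those of testicular sperm 1 and 3 carry others.

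Primary spermatocytes are the cells in meiosis. Their haploid products, the round spermatids, build the acrosome, then elongate, pack the genome with protamines and shed most of their cytoplasm before they are released as testicular sperm. Pachytene PIWI-interacting RNAs (piRNAs) are made from long precursors of dedicated genomic loci during meiosis, bind PIWI proteins and persist in round spermatids. Several microRNA families are known from male germ cells, above all the mir-34 and mir-449 family and a cluster of rapidly evolving microRNAs on the X chromosome, whereas mir-486 and mir-451 are known from red blood cells and let-7 microRNAs from differentiated somatic tissue.

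Members of the microRNA families described below are shown with their seed, bases 2 to 8, in capitals. Not all of them differed between the stages. The sequences come from RefSeq (GRCm38.p6), where 965 of the 1123 microRNA rows had a mature sequence. A row holds the reads of a whole hairpin, so no arm is measured apart. The mir-34 and mir-449 family shares the first seed on its 5′ arms, and mir-34b and mir-34c share another on their 3′ arms:
mmu-miR-34b-5p: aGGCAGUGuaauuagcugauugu
mmu-miR-449a-5p: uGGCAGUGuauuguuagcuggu
mmu-miR-449c-5p: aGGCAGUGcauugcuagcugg
mmu-miR-34b-3p: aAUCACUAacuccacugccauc
mmu-miR-34c-3p: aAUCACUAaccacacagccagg

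These members of the X-linked cluster have seeds that differ from one another, although 4 mature microRNAs in the table hold the seed of miR-465c-5p:
mmu-miR-465c-5p: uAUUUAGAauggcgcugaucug
mmu-miR-470-5p: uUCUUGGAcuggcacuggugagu
mmu-miR-741-3p: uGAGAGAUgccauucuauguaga
mmu-miR-743b-3p: gAAAGACAucaugcugaauaga
mmu-miR-871-3p: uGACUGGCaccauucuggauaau
mmu-miR-881-3p: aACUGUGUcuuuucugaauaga

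The rows of the following were higher in testicular sperm on average than in late round spermatids, with 1 seed shared by the let-7 members:
mmu-let-7a-5p: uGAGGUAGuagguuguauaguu
mmu-let-7f-5p: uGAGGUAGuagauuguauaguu
mmu-let-7i-5p: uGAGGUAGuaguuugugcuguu
mmu-miR-451a: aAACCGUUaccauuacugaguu
mmu-miR-144-3p: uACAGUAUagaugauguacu
mmu-miR-10b-5p: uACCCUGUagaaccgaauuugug
mmu-miR-16-5p: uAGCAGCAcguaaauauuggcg

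The labels were first set against fragments of marker mRNAs, given as summed counts per 1000000 reads of the library (CPM). Fragments of 13 spermatocyte mRNAs summed to 29.0 CPM in spermatocytes, 22.9 CPM in early and 23.7 CPM in late round spermatids, and to 10.1, 23.3, 23.4 and 25.2 CPM in testicular sperm 1 to 4. Fragments of 10 round spermatid mRNAs summed to 0.721, 2.07 and 2.02 CPM along the 3 germ cell stages. In testicular sperm 1 to 4 they summed to 4.54, 2.58, 4.35 and 2.81 CPM. Fragments of 9 elongating spermatid mRNAs, which include the protamines, summed to 1.22, 1.496 and 2.08 CPM in the germ cells and to 75.4, 51.8, 79.9 and 49.9 CPM in testicular sperm 1 to 4. The spermatid markers were thus lowest in spermatocytes. Both spermatid lists were higher in every testicular sperm library than in any germ cell library, the late markers by far. Round spermatid markers were therefore not highest in round spermatids. Spermatocyte markers were present at all stages and lowest in testicular sperm 1.

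Fragments of marker mRNAs of blood, epididymis and Sertoli cells were lower in every germ cell library than in any testicular sperm library. Those of Leydig cells overlapped between them. A list of 5 epididymal markers that includes microRNAs overlapped too, with 94.7, 134 and 133 CPM along the germ cell stages. In testicular sperm 1 to 4 it summed to 3571, 499, 706 and 132 CPM. Most of this sum was Mir10a, which is also counted among the Hox-cluster microRNAs below. Mir10a had 89.9 CPM in spermatocytes and a mean of 1074 CPM in testicular sperm, where the list had a mean of 1227 CPM. Fragments of 4 blood mRNAs had no read in any of the 3 germ cell libraries, which allows up to 0.135, 0.173 and 0.189 CPM along the stages, and summed to 174.5, 2.78, 23.2 and 32.9 CPM in testicular sperm 1 to 4. Fragments of 10 epididymal mRNAs summed to 0.586 to 2.01 CPM in the germ cells and to 131.8, 5.73, 5.32 and 2.07 CPM in testicular sperm. Those of 11 Sertoli cell mRNAs, from the cells that nurse the germ cells, summed to 0.406 to 0.694 CPM in the germ cells and to 39.4, 2.54, 2.66 and 1.81 CPM in testicular sperm. Sox9 had 3 reads in testicular sperm 1 and none in the other libraries, Wt1 had 1 read in all, in late round spermatids, and Gata4 and Rhox5 had none. Leydig cell mRNAs summed to 4.16 to 6.27 CPM in the germ cells and to 3.27 to 6.53 CPM in testicular sperm, and in the germ cells nearly all of these reads were Star, the cholesterol carrier of steroid synthesis. Testicular sperm 1 stood apart by markers of blood and epididymis. Its Sertoli sum was nearly all Clu, at 37.4 CPM with the next library at 2.29 CPM, and the epididymis makes Clu too. Results are given below for each library. The part of such RNA in the results was not tested.

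**Figure D1:**
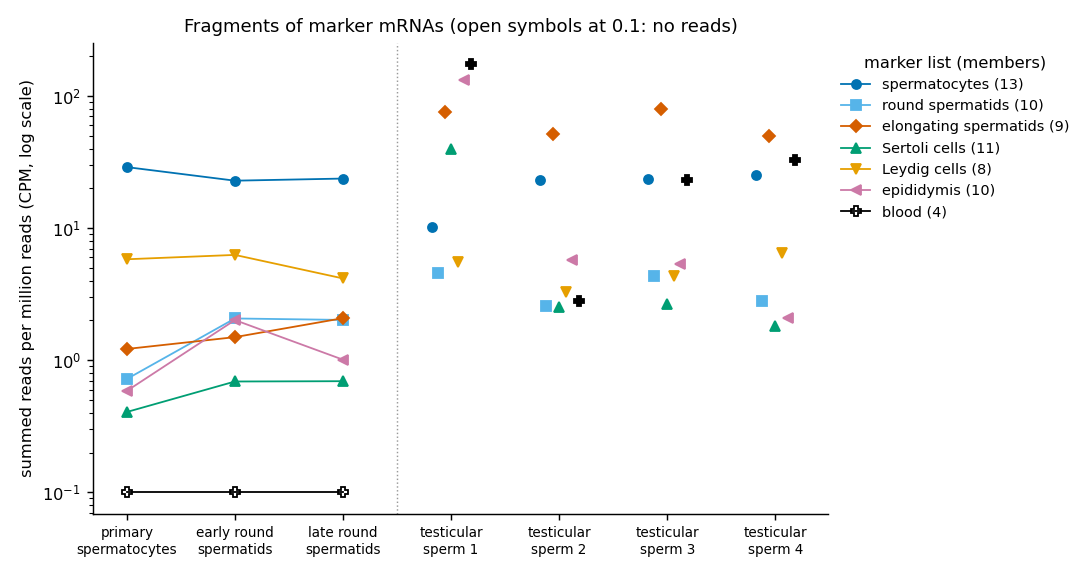
Summed CPM (log scale) of fragments of marker mRNAs in the 3 germ cell libraries and the 4 testicular sperm libraries, 1 symbol per marker list and library (the number of members in brackets), with lines joining the germ cell stages. Elongating spermatid markers stand at 1.22 to 2.08 CPM in the germ cells and at 49.9 to 79.9 CPM in testicular sperm, blood markers have no reads in the germ cells, and testicular sperm 1 has the highest Sertoli and epididymal sums.

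The classes of small RNA stood at like shares from spermatocytes to late round spermatids and at other shares in testicular sperm. piRNA reads made up 93.8% of the library in spermatocytes, 94.2% in early and 93.7% in late round spermatids. In testicular sperm they made up 31.2%, 69.2%, 43.1% and 77.9% in libraries 1 to 4, which is 55.3% ± 21.9 (SD, n = 4). All 4 values lay below those of the germ cells, and they lay far wider apart than the 3 germ cell stages. Ribosomal RNA (rRNA) fragments made up 0.313%, 0.351% and 0.394% along the germ cell stages and 28.6%, 19.8%, 37.3% and 15.3% in testicular sperm 1 to 4. Transfer RNA (tRNA) fragments made up 0.286%, 0.517% and 0.559% along the stages and 7.84%, 3.07%, 3.32% and 1.15% in testicular sperm 1 to 4. The tRNA and rRNA shares were higher at each stage than at the one before it.

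MicroRNA reads made up 3.91% of the library in spermatocytes, 3.21% in early and 3.76% in late round spermatids, and 30.7%, 6.45%, 14.9% and 4.04% in testicular sperm 1 to 4. All 4 testicular sperm values lay above the germ cells, but with the 5 red cell microRNA rows Mir486, Mir3107, Mir451a, Mir451b and Mir144 left out the share was 13.4%, 5.57%, 9.72% and 2.95%, and that of testicular sperm 4 lay below every germ cell stage. Gene fragments made up 1.48% to 1.61% of the germ cell libraries and 1.35% to 1.52% of the testicular sperm libraries, and repeats 0.0816% to 0.107% and 0.0593% to 0.105%. At this depth, 4842250 to 22190669 reads per library, the counting error of these shares was small, for instance a 95% exact Clopper-Pearson interval of 0.284% to 0.288% for tRNA in spermatocytes. Such intervals cover counting error only, since copies made by PCR cannot be told from separate molecules here, and say nothing of the spread between preparations of 1 stage. Each germ cell stage had 1 library, so no difference that involves one has a replicate check or a test.

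Every level in the text is a share of a library, so a class that is higher lowers all others, and fewer cells of a type and less RNA per cell cannot be told apart. Set against piRNA reads, rRNA and tRNA were also higher in testicular sperm. piRNAs held a lower share there, so this denominator raises every other class and is no separate check. There were 0.333, 0.372 and 0.420 rRNA reads for every 100 piRNA reads along the germ cell stages and 91.7, 28.7, 86.7 and 19.6 in testicular sperm 1 to 4. For tRNA the values were 0.304, 0.549 and 0.597 along the stages and 25.1, 4.45, 7.70 and 1.48 in testicular sperm.

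**Figure D2:**
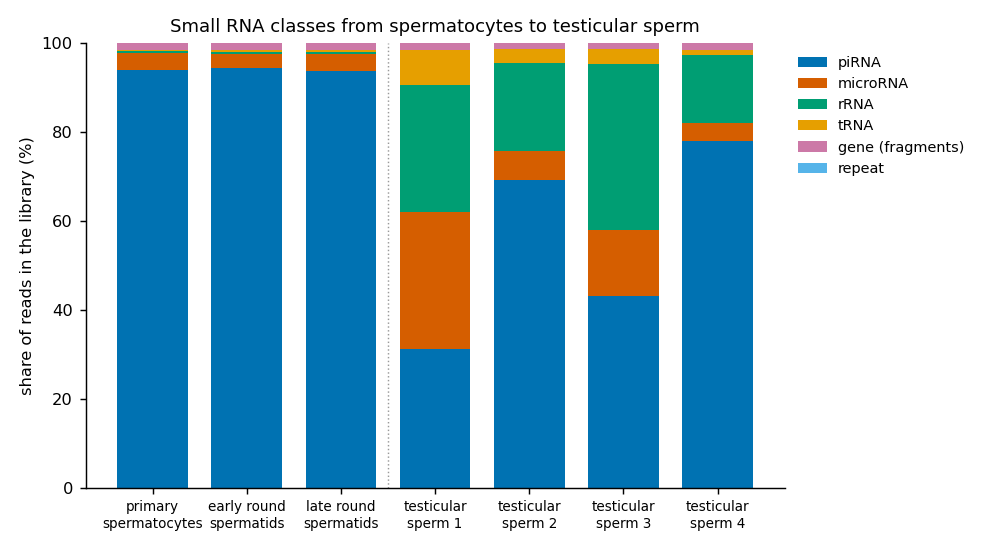
Share of reads (%) of each small RNA class in the 7 libraries, stacked to 100%. piRNA reads fill 93.7% to 94.2% of the 3 germ cell libraries and 31.2% to 77.9% of the 4 testicular sperm libraries, where rRNA fragments take 15.3% to 37.3%.

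Other libraries of the series bear on the spread. In 2 libraries of whole testicular sperm counted in another table, piRNA reads made up 71.97% and 83.3% and rRNA fragments 14.1% and 6.85%. The rRNA shares lay below and the tRNA shares, 8.05% and 3.49%, above those of testicular sperm 2 and 4. In 2 libraries of testicular sperm taken through a mock fusion, piRNA reads made up 36.7% and 39.8% and rRNA fragments 40.1% and 42.05%. The piRNA shares lay between testicular sperm 1 and 3, and the rRNA shares above all 4 libraries. Whole testis tissue (n = 4, counted without gene rows) had a piRNA share of 90.3% to 91.4%, against 95.1% to 95.8% for the germ cells and 31.7% to 79.1% for testicular sperm on the same denominator.

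Between stages, an RNA was called different when its CPM differed by at least 4-fold and reached 10 CPM in the higher stage. For testicular sperm the mean of the 4 libraries was used and all 4 had to lie on the same side. Of 637 RNAs compared between early round spermatids and spermatocytes, 1 was higher (0.157%) and 1 was lower (0.157%). The higher one was Snord55, a box C/D small nucleolar RNA, and the lower one Mir3968. Of 613 compared between late and early round spermatids, 1 was higher (0.163%), the box C/D RNA Snord68, and 1 was lower (0.163%), Mir449c. Of 705 compared between testicular sperm and late round spermatids, 127 were higher (18.0%) and 2 were lower (0.284%). Against spermatocytes, testicular sperm had 165 of 716 RNAs higher (23.0%) and 1 lower (0.140%), Mir449a.

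The 127 RNAs higher in testicular sperm than in late round spermatids were 56 microRNAs, 36 of the 53 tRNA isoacceptors, 23 gene rows, 9 piRNA loci, both rRNA rows and 1 repeat. With the 2 testicular sperm libraries that carry the number of the germ cell libraries in their titles, 68 RNAs were higher, all of them among the 127: 30 isoacceptors, 25 microRNAs, 10 gene rows, both rRNA rows and 1 piRNA locus. Without testicular sperm 1 the number was 94, of which 92 were among the 127, and 1 of the 9 piRNA loci was left. The number lower was 6 without testicular sperm 2 and 5 without testicular sperm 4, and against spermatocytes it was 3 without testicular sperm 4. Scaling by edgeR's trimmed mean of M values moved the median log2 ratio of all RNAs compared by 0.21 for late against early round spermatids and by −0.14 for testicular sperm against late round spermatids.

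Over the 757 RNAs that reached 10 CPM at some stage, 199 were highest in spermatocytes, 98 in early round spermatids, 167 in late round spermatids and 293 in testicular sperm. By class the order differed: 143 of 177 microRNAs and all 45 isoacceptors compared were highest in testicular sperm, against 60 of 210 piRNA loci and 40 of 305 gene rows. As shares of their own class, 69 microRNAs, 129 piRNA loci and 22 isoacceptors were highest in testicular sperm, so these orders follow the denominator. The early round spermatid library held the fewest maxima in each of the classes piRNA, microRNA and repeat.

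The mir-34 and mir-449 family, needed for male fertility, led the microRNAs of germ cells and held a smaller share in testicular sperm. Its 6 members summed to 55.7% of microRNA reads in spermatocytes, 45.9% in early and 48.5% in late round spermatids, and to 1.18%, 23.8%, 8.89% and 21.0% in testicular sperm 1 to 4. As a share of the whole library the difference was smaller, with 21798, 14715 and 18249 CPM along the germ cell stages and 3622, 15350, 13223 and 8469 CPM in testicular sperm. Mir34c (chr9:51103034-51103110, GRCm38), the most abundant microRNA row of the germ cells, had 18741 CPM in spermatocytes, 13016 CPM in early and 16152 CPM in late round spermatids, and 2942, 13822, 11885 and 7581 CPM in testicular sperm 1 to 4. Testicular sperm 2 thus lay within the range of the germ cells, and the other 3 lay below it. Mir34b, made from the same transcript, had 797, 585 and 786 CPM along the stages and 552, 961, 958 and 370 CPM in testicular sperm, so both groups overlapped.

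Mir449a (chr13:113037534-113037624), from a cluster in an intron of Cdc20b, was highest in spermatocytes at 2168 CPM, with 1055 CPM in early and 1288 CPM in late round spermatids. In testicular sperm it had 114, 539, 352 and 478 CPM, all below every germ cell stage, and lay 2.55 log2 units below spermatocytes. Its neighbour Mir449c (chr13:113035983-113036091) behaved otherwise. It had 78.2 CPM in spermatocytes, 38.3 CPM in early and 2.33 CPM in late round spermatids (1735, 666 and 37 reads), and 12.6, 21.1, 18.6 and 36.4 CPM in testicular sperm. Late round spermatids were thus 4.04 log2 units below early ones for Mir449c, while Mir449a was 0.29 above, and every testicular sperm library lay above the late round spermatid library for Mir449c. Mir34a had 13.9, 19.6 and 20.8 CPM along the stages and 1.86 to 9.46 CPM in testicular sperm. Mir449b had 1 or 2 reads in each germ cell library.

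The X-linked cluster was higher at each germ cell stage than at the one before it. Its 21 members, 20 of them with reads in the germ cells, summed to 2449, 3046 and 3371 CPM along the stages and to 5446, 6449, 7107 and 2361 CPM in testicular sperm 1 to 4. Among microRNA reads they held 6.26%, 9.49% and 8.96% along the stages and 1.78%, 10.001%, 4.78% and 5.84% in testicular sperm, where the difference from late round spermatids turned its sign. No member passed the 4-fold rule between germ cell stages. Mir470 had 268, 427 and 414 CPM along the stages, and 1228, 620, 586 and 287 CPM in testicular sperm. Mir465c-1, which shares its mature sequence with Mir465c-2 and may share its reads, had 149, 243 and 265 CPM along the stages and 654, 719, 845 and 204 CPM in testicular sperm.

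Other members of the cluster differed among themselves. Mir743b had 127, 169 and 191 CPM along the stages and 489, 612, 577 and 172 CPM in testicular sperm, the last of which lay within the range of the germ cells. Mir881 had 285, 333 and 410 CPM along the stages and 304, 921, 992 and 274 CPM in testicular sperm. Both were, like Mir465c-1, higher at each germ cell stage than at the one before it, and lowest among the testicular sperm libraries in testicular sperm 4. Mir871 had 977, 974 and 1040 CPM along the stages and 789, 1088, 1253 and 685 CPM in testicular sperm, a range on both sides of the germ cells. Mir741 had 79.8 and 79.3 CPM in spermatocytes and early round spermatids, 139 CPM in late round spermatids and 105, 74.7, 62.9 and 36.5 CPM in testicular sperm, each below late round spermatids.

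Beyond these families, a pair of abundant rows ran in opposite directions through the germ cells. Mir22 had 1100, 1533 and 1847 CPM along the stages and 7971, 4051, 7061 and 1973 CPM in testicular sperm, so it was higher at every stage than at the one before it. Mir191 had 1681, 1160 and 957 CPM along the stages and 2665, 2186, 3188 and 1141 CPM in testicular sperm, where testicular sperm 4 lay between the germ cell values. The rows Mir7217, with 172, 79.1 and 61.8 CPM along the stages, and Mir468, with 158, 90.3 and 88.1 CPM, were among the 5 microRNAs of at least 100 CPM that lay furthest below spermatocytes in early round spermatids. The mir-17-92 cluster and its paralogs, known for promoting cell proliferation, summed to 2220, 1863 and 2117 CPM along the stages and to 11244, 2629, 6574 and 1895 CPM in testicular sperm. Mir25, a member of a paralog cluster, had 378, 367 and 463 CPM along the stages and 2846, 913, 2364 and 653 CPM in testicular sperm, all 4 above the germ cells. The share of the 15 members among microRNA reads was 5.63% to 5.81% in the germ cells and 3.67% to 4.69% in testicular sperm, so its direction too turned with the denominator.

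MicroRNAs of red blood cells were nearly absent from germ cells and abundant in testicular sperm. The row Mir486 (chr8:23142555-23142682) had 2.30, 1.84 and 1.45 CPM along the germ cell stages and 97466, 3992, 24702 and 4819 CPM in testicular sperm 1 to 4. The row Mir3107 is its near-identical partner on the other strand and may hold the same reads. Mir451a (chr11:78073170-78073241) had 2, 0 and 1 reads along the germ cell stages and 10191, 6249, 50180 and 10298 reads in testicular sperm, and its neighbour Mir144 had 1, 0 and 0 reads and then 7284, 3542, 27403 and 4531 reads. Together the 5 red cell rows held 65.1%, 14.5%, 38.4% and 27.9% of microRNA reads in testicular sperm 1 to 4 and 0.00956% to 0.0119% in the germ cells. They summed to 199644, 9343, 57106 and 11264 CPM in testicular sperm 1 to 4. Like the fragments of blood mRNAs given above, this sum was highest in testicular sperm 1 and lowest in testicular sperm 2. Testicular sperm 3 and 4 stood in the opposite order by the 2 measures, and Mir451a and Mir144 were highest in testicular sperm 3, at 3103 and 1694 CPM. Testicular sperm 2 had the lowest blood mRNA sum, 2.78 CPM, and the lowest Mir451a level, 512 CPM.

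The let-7 family was low in germ cells and higher in every testicular sperm library. Its 12 members summed to 501, 578 and 719 CPM along the germ cell stages and to 24828, 3572, 11486 and 1799 CPM in testicular sperm 1 to 4. Of the 12, 9 were higher by the 4-fold rule than in late round spermatids, beside 18.0% of all 705 RNAs and 56 of 172 microRNAs compared. The 9 include Mirlet7f-1 and Mirlet7f-2, which may share reads. The median log2 ratio of the family was 3.47, beside 1.38 for the 172 microRNAs and −0.19 for all 705 RNAs. Their share of microRNA reads was 1.28% to 1.91% in the germ cells and 4.45% to 8.10% in testicular sperm, so all 4 libraries lay above on that denominator too. The members were unequal. Mirlet7f-2, whose mature sequence is also that of Mirlet7f-1, had 33.8, 48.8 and 56.3 CPM along the stages and 8016, 1071, 3688 and 435 CPM in testicular sperm, 5.88 log2 units above late round spermatids. Mirlet7i had 43.4, 50.7 and 56.5 CPM along the stages and 2668, 492, 2151 and 468 CPM in testicular sperm. Mirlet7a-1 was the highest of these 3 in germ cells, with 105, 99.6 and 139 CPM, and had 1682, 243, 634 and 111 CPM in testicular sperm, the last of which lay below late round spermatids.

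In CPM, lists of other tissues were also higher in testicular sperm on average, each highest in testicular sperm 1. Hox-cluster microRNAs, led by Mir10b, summed to 161, 240 and 262 CPM along the stages and to 9894, 974, 2209 and 329 CPM in testicular sperm. The mir-200 family of epithelia summed to 11.4, 22.4 and 25.9 CPM along the stages and to 653, 91.8, 143 and 22.5 CPM in testicular sperm, so testicular sperm 4 did not exceed late round spermatids. Hox-cluster microRNAs, by contrast, exceeded late round spermatids in all 4 libraries. The muscle list, nearly all of it Mir143, summed to 43.6, 44.8 and 62.1 CPM along the stages and to 1215, 170, 362 and 275 CPM in testicular sperm. Epididymal microRNAs summed to 47.6, 56.5 and 53.3 CPM along the stages and to 435, 146, 189 and 48.1 CPM in testicular sperm. In testicular sperm 4 the epididymal list lay within the range of the germ cells. Among microRNA reads this list held 0.122%, 0.176% and 0.142% along the stages. It held 0.142%, 0.226%, 0.127% and 0.119% in testicular sperm 1 to 4, so both groups overlapped on that denominator. A widely expressed microRNA, Mir16-1, named here after its values were seen and with a twin row Mir16-2 that may share its reads, had 529, 633 and 775 CPM along the stages and 4202, 2464, 7585 and 1357 CPM in testicular sperm.

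Of the remaining lists, the mir-30 and mir-29 families differed less. The mir-30 family, present in most tissues, summed to 1436, 1256 and 1240 CPM along the stages and to 2612, 2825, 4573 and 1355 CPM in testicular sperm, and the mir-29 family to 80.6, 105 and 135 CPM and to 105, 156, 190 and 66.3 CPM. For both families testicular sperm 4 lay within or below the range of the germ cells. The cluster of mir-183, mir-96 and mir-182 summed to 146, 196 and 197 CPM along the stages and to 535, 400, 400 and 148 CPM in testicular sperm. The Sertoli and Leydig cell list, by contrast, was above every germ cell stage in all 4 testicular sperm libraries. Its microRNAs, led by Mir140, summed to 66.0, 79.8 and 98.3 CPM along the stages and to 1245, 280, 603 and 152 CPM in testicular sperm. Endothelial microRNAs summed to 5.09, 6.56 and 7.13 CPM and to 31.4, 12.5, 26.2 and 9.84 CPM.

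**Figure D3:**
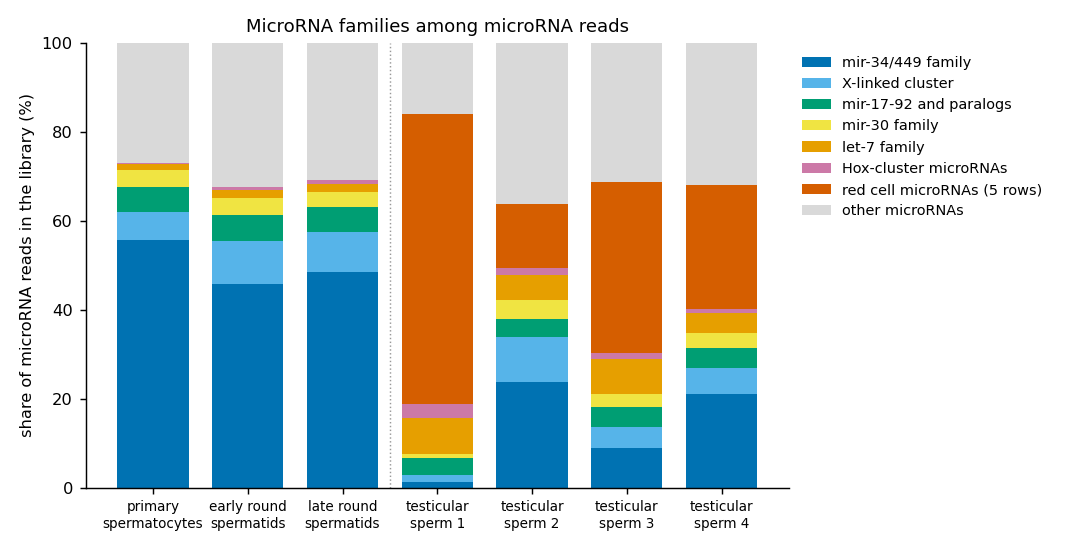
Share of microRNA reads (%) held by 6 microRNA lists and 5 red cell microRNA rows in each library, stacked to 100% with all other microRNAs. The mir-34 and mir-449 family holds 45.9% to 55.7% in the germ cells and 1.18% to 23.8% in testicular sperm, where the red cell rows hold 14.5% to 65.1%.

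Within the piRNAs the germ cells were nearly alike. Read counts were summed over the rows of a locus, and the 214 loci are named either for a gene (114, names starting with pi) or for a chromosome band (100). The largest locus in spermatocytes, 2-qE1-35981, had 48930, 51567 and 51232 reads per 1000000 piRNA reads (ppm) along the germ cell stages and 52491, 53784, 54160 and 53510 in testicular sperm 1 to 4. In spermatocytes 30 loci reached 10000 ppm. They held 76.5% of piRNA reads there and 75.4% in late round spermatids. Over the 160 loci that averaged at least 100 ppm over the 7 libraries, the median absolute log2 ratio was 0.15 between early round spermatids and spermatocytes and 0.06 between late and early round spermatids. The microRNAs were less alike, with 0.58 and 0.19 for these steps over 180 rows chosen the same way among microRNA reads. For the piRNA loci it was 0.04 to 0.15 between pairs of testicular sperm libraries. The share of the library taken by piRNAs thus differed among testicular sperm by far more than the median locus did within the piRNAs. Gene-named loci varied more, with 7.77% of piRNA reads in testicular sperm 1 and 3.66%, 4.12% and 3.78% in testicular sperm 2 to 4.

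By piRNA make-up, each testicular sperm library lay nearer to spermatocytes than to late round spermatids. The median absolute log2 ratio to spermatocytes was 0.26, 0.14, 0.19 and 0.15 for testicular sperm 1 to 4, and that to late round spermatids was 0.33, 0.21, 0.25 and 0.23. A pair of large loci on chromosome 17, chosen after their values were seen, shows it. Locus 17-qA3.3-26735 had 42870, 33797 and 26892 ppm along the germ cell stages and 41520, 41931, 42642 and 42566 in testicular sperm. Locus 17-qA3.3-27363 had 35746, 30621 and 26746 along the stages and 41414, 38625, 39716 and 38448 in testicular sperm. Both were lower at each later germ cell stage, and the testicular sperm libraries lay close together, just below spermatocytes for the first locus and above them for the second. On the same chromosome band, 17-qA3.3-352 ran the other way through the germ cells, with 809, 1105 and 1291 ppm, and had 1437, 1050, 1569 and 1075 in testicular sperm. By microRNA make-up, over 180 rows, each testicular sperm library lay nearer to late round spermatids instead. The median absolute log2 ratio to late round spermatids was 1.92, 0.67, 1.06 and 0.71 for testicular sperm 1 to 4. That to spermatocytes was 2.13, 1.24, 1.14 and 0.80.

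Loci named for genes were mostly lower in late round spermatids than in spermatocytes, and this differed with their level. Of the 114 gene-named loci, 29 were higher in late round spermatids than in spermatocytes, against 57 of the 100 band-named ones, with median log2 ratios of −0.32 and 0.04. Of the gene-named loci under 100 ppm in spermatocytes 7 of 66 were higher, and of those between 100 and 1000 ppm 15 of 40, against 1 of 5 and 16 of 19 band-named ones. From 1000 ppm up the order was the other way, with 7 of 8 gene-named and 40 of 76 band-named loci higher (median log2 0.16 and 0.02). pi-Ccrn4l showed the largest difference among loci of at least 100 ppm on average, with 437, 271 and 156 ppm along the stages and 678, 520, 714 and 532 in testicular sperm. pi-Phf20 had 202, 141 and 106 along the stages and 994, 290, 423 and 321 in testicular sperm, and for both loci every testicular sperm library lay above every germ cell stage. pi-Zmat3 had 107, 172 and 193 along the stages and 362, 119, 118 and 98.0 in testicular sperm, the highest ratio of late round spermatids to spermatocytes among these loci. pi-Arhgap20 had 695, 1020 and 1092 along the stages and 1572, 1009, 1235 and 962 in testicular sperm.

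In testicular sperm 72 of the 114 gene-named loci were at least 2-fold above late round spermatids, 70 of them with all 4 libraries above it, against 3 of the 100 band-named loci. The median log2 ratios were 1.53 and −0.01. With testicular sperm 2 and 4 alone the numbers were 45 and 2. The level of a locus moved with this. Among loci under 100 ppm in spermatocytes, 55 of 66 gene-named and 3 of 5 band-named ones were at least 2-fold higher in testicular sperm, between 100 and 1000 ppm 17 of 40 and 0 of 19, and from 1000 ppm up 0 of 8 and 0 of 76. In CPM pi-Ankrd11 had 54.6, 40.4 and 39.0 along the stages and 692, 175, 425 and 255 in testicular sperm. pi-Ipmk was high in testicular sperm 1 alone, with 187, 192 and 241 CPM along the stages and 800, 111, 63.4 and 155 CPM in testicular sperm. Gene-named loci together held 3.35% to 3.55% of piRNA reads in the germ cells and 7.77%, 3.66%, 4.12% and 3.78% in testicular sperm.

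**Figure D4:**
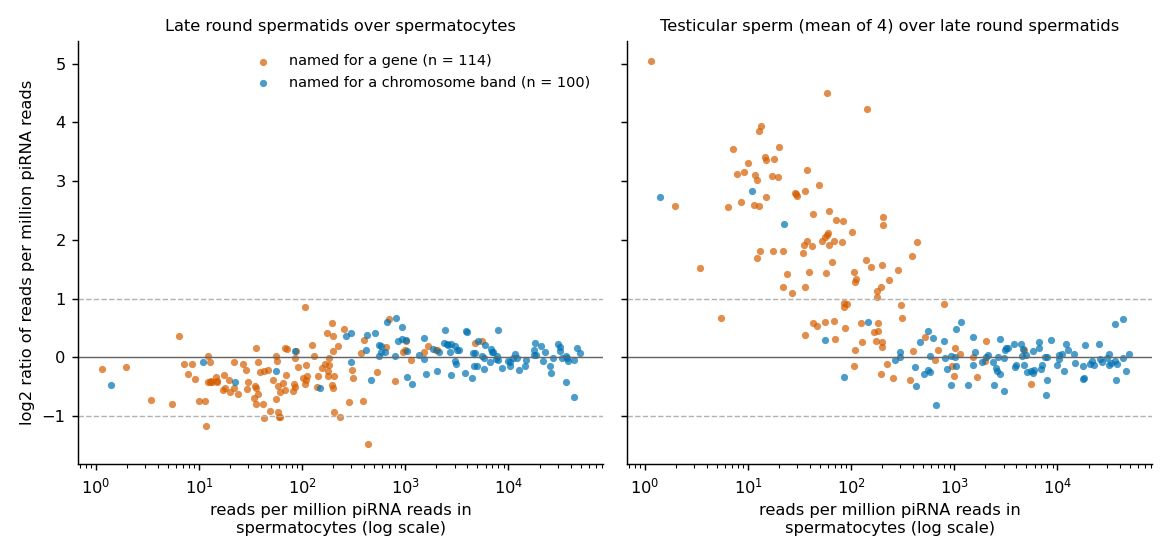
The log2 ratio of reads per 1000000 piRNA reads for each of 214 piRNA loci, late round spermatids over spermatocytes (left) and testicular sperm (mean of 4) over late round spermatids (right), against the level in spermatocytes (log scale). Dashed lines mark 2-fold. In the right panel 72 of 114 gene-named loci lie on or above the upper dashed line, 55 of them under 100 ppm in spermatocytes, and 3 of 100 band-named loci do.

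Fragments of tRNA were higher in early round spermatids than in spermatocytes and higher again in testicular sperm. tRNAs are cut to fragments in many cells, and 5′ pieces of GlyGCC, GluCTC and ValCAC tRNA are known as the main small RNA of mature sperm from the epididymis. Rows of the same isoacceptor were summed. ValCAC had 684, 1430 and 1432 CPM along the germ cell stages and 21949, 7101, 7797 and 2090 CPM in testicular sperm 1 to 4. Early round spermatids held more of it than spermatocytes, and testicular sperm more again. GlyGCC had 226, 571 and 572 CPM along the stages and 14567, 4818, 6379 and 2247 CPM in testicular sperm. GluCTC had 373, 687 and 763 CPM along the stages and 8487, 2254, 3511 and 1092 CPM in testicular sperm. ValAAC had 308, 643 and 619 CPM along the stages and 8723, 3353, 3493 and 977 CPM in testicular sperm. For these isoacceptors all 4 testicular sperm libraries lay above every germ cell stage, and early and late round spermatids lay close together.

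Many isoacceptors were rare in germ cells. Among the isoacceptors that passed the 4-fold rule, the highest ratios of testicular sperm to late round spermatids were those of leucine, serine and alanine tRNAs. LeuAAG had 2.30, 3.85 and 3.72 CPM along the stages and 2508, 1646, 1667 and 342 CPM in testicular sperm, 8.69 log2 units above late round spermatids. LeuTAG had 1.13, 0.805 and 1.64 CPM along the stages and 899, 583, 587 and 121 CPM in testicular sperm. Both leucine isoacceptors were higher in every testicular sperm library than in any germ cell library. AlaTGC had 4.37, 11.3 and 17.8 CPM along the stages and 3034, 2068, 1293 and 453 CPM in testicular sperm. SerAGA had 6.76, 3.51 and 3.53 CPM along the stages and 1157, 271, 231 and 108 CPM in testicular sperm. Others differed less: GluTTC had 328, 538 and 622 CPM along the stages and 1433, 1146, 1007 and 522 CPM in testicular sperm, so testicular sperm 4 lay below late round spermatids. GlnCTG had 127, 123 and 161 CPM along the stages and 381, 304, 181 and 246 CPM in testicular sperm. The median log2 ratio of testicular sperm to late round spermatids over the 45 isoacceptors compared was 3.18. Among tRNA reads the log2 ratio of LeuAAG was still 5.96 and that of GlyGCC 0.83, while those of ValCAC, ValAAC and GluCTC turned to −0.14, −0.11 and −0.51.

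rRNA fragments differed in level and in make-up. The row for the 45S precursor, which holds the 28S, 18S and 5.8S reads, had 1824, 2487 and 2648 CPM along the germ cell stages and 214913, 146204, 288346 and 116745 CPM in testicular sperm. The 5S row had 1304, 1018 and 1290 CPM along the stages and 71513, 52189, 85031 and 35836 CPM in testicular sperm. Reads of 28S rRNA made up 23.8%, 41.6% and 38.9% of rRNA reads along the stages and 59.4%, 51.7%, 58.7% and 54.5% in testicular sperm. Those of 18S rRNA made up 5.53%, 7.19% and 9.42% along the stages and 7.48%, 1.53%, 1.24% and 1.91% in testicular sperm, so testicular sperm 1 alone kept a share like that of the germ cells.

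**Figure D5:**
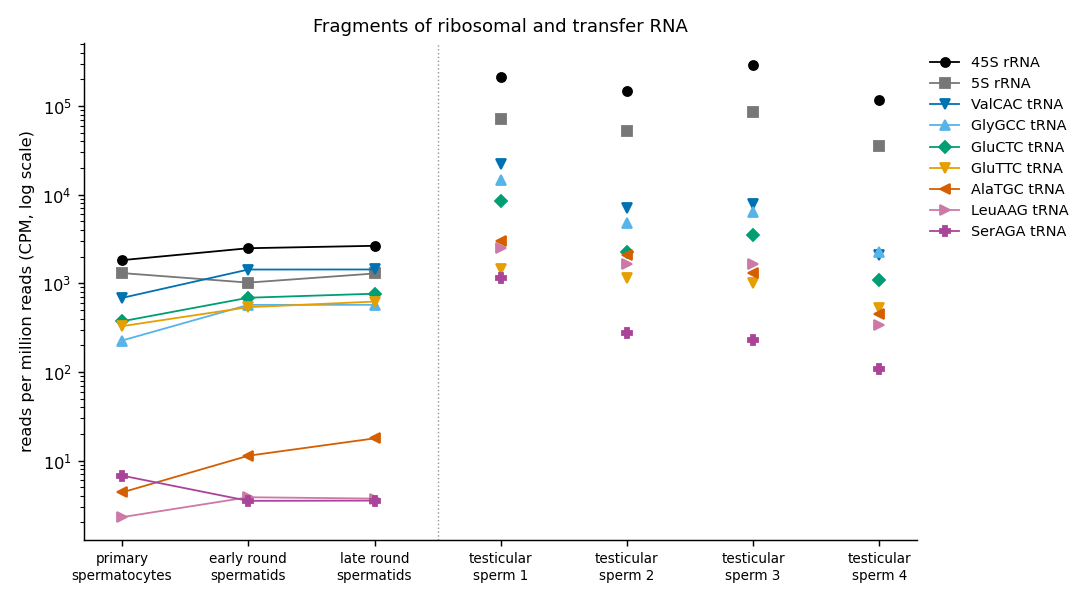
CPM (log scale) of both rRNA rows and 7 tRNA isoacceptors in each library, with lines joining the 3 germ cell stages. Every row shown except GluTTC is higher in all 4 testicular sperm libraries than in each germ cell library, and GluTTC in testicular sperm 4, at 522 CPM, lies below late round spermatids at 622 CPM.

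Of 261 gene rows compared between testicular sperm and late round spermatids, 23 were higher by the 4-fold rule. Of 16 elongating spermatid mRNAs only 2, Smcp and Odf1, reached 10 CPM, and both were higher. Smcp, a protein of the mitochondrial capsule (chr3:92583866-92589073, GRCm38), had 1, 4 and 6 reads along the germ cell stages and 134, 254, 460 and 284 reads in testicular sperm. That was 0.379 CPM in late round spermatids and 23.8 ± 4.998 CPM in testicular sperm (SD, n = 4). Odf1, of the outer dense fibres of the tail (chr15:38219203-38226735), had 4, 3 and 7 reads along the stages and 99, 225, 445 and 220 reads in testicular sperm, 20.2 ± 5.55 CPM (SD, n = 4). Oaz3, a spermatid antizyme, had 0.270, 0.230 and 0.315 CPM along the stages and 10.5, 8.52, 11.7 and 7.83 CPM in testicular sperm. Prm2, a protamine, had 0, 1 and 3 reads along the stages and 38, 19, 89 and 63 reads in testicular sperm. For each of these mRNAs all 4 testicular sperm libraries lay above every germ cell stage.

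Most gene rows were lower in testicular sperm than in late round spermatids, and mRNAs of the piRNA pathway were among them. Over the 261 gene rows compared, 78 were at least 2-fold lower and 32 at least 2-fold higher, and the median log2 ratio was −0.74. Over the 3 piRNA pathway mRNAs compared it was −1.45. Fragments of 21 piRNA pathway mRNAs summed to 88.3, 118 and 117 CPM along the stages and to 37.8, 85.5, 55.1 and 88.3 CPM in testicular sperm. The largest was Piwil2, a PIWI protein, with 29.9, 48.8 and 50.5 CPM along the stages and 14.9, 39.6, 25.2 and 36.0 CPM in testicular sperm. Henmt1, which methylates the 3′ end of piRNAs, had 10.6, 15.99 and 17.98 CPM along the stages and 2.68, 8.35, 3.77 and 8.15 CPM in testicular sperm, each below every germ cell stage. Sycp1, of the synaptonemal complex, had 4.68, 2.95 and 2.71 CPM along the stages and 0.207, 2.87, 2.23 and 4.01 CPM in testicular sperm. No piRNA pathway mRNA passed the 4-fold rule in the 4 comparisons, where 3 or 4 of the 21 reached 10 CPM. Meiotic mRNAs summed over 27 members, Piwil2 among them, to 70.5, 83.3 and 83.6 CPM along the stages and to 30.9, 73.4, 55.9 and 73.6 CPM in testicular sperm. Spermatogonia mRNAs summed to 0.882 to 2.07 CPM in the germ cells and peritubular muscle mRNAs to at most 0.0575 CPM.

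Small noncoding RNAs with other roles showed both early and late differences. Box C/D small nucleolar RNAs, which guide the methylation of rRNA, summed over 68 genes to 111, 209 and 234 CPM along the germ cell stages and to 251, 333, 854 and 296 CPM in testicular sperm. Snord55 had 1.76, 10.99 and 10.6 CPM along the stages and 18.8, 28.3, 56.6 and 23.4 CPM in testicular sperm. Snord68 had 0.451, 2.76 and 14.1 CPM along the stages and 5.37, 5.08, 54.3 and 4.08 CPM in testicular sperm, where 3 of the 4 libraries lay below late round spermatids. Both are named because they passed the 4-fold rule, and so after their values were seen. Testicular sperm 3 held the most of each. Gas5, a host gene of such RNAs, had 9.82, 23.6 and 21.6 CPM along the stages and 49.2, 92.0, 206 and 59.1 CPM in testicular sperm. Box H/ACA RNAs summed to 2.07 to 2.90 CPM in the germ cells and to 5.49 to 15.3 CPM in testicular sperm. Vaultrc5, the RNA of the vault particle, had 11, 7 and 5 reads along the stages and 626, 21.7, 216 and 31.3 CPM in testicular sperm.

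Other gene lists differed less, apart from testicular sperm 1. Histone genes summed to 77.1, 71.7 and 59.0 CPM along the stages and to 57.3 to 66.9 CPM in testicular sperm. Rows with names starting with Rps summed to 111, 89.2 and 61.3 CPM along the stages and to 74.7 to 123 CPM in testicular sperm. These rows stand mostly for ribosomal proteins of the small subunit, but also for kinases such as Rps6ka1 and for Rps19bp1. Ribosomal proteins of the large subunit summed to 62.3, 65.9 and 46.9 CPM along the stages and to 67.1 to 175 CPM in testicular sperm. Nuclear long RNAs summed to 10.3, 12.4 and 12.5 CPM along the stages and to 29.6, 9.17, 10.9 and 11.5 CPM in testicular sperm. Rn45s, a gene row that stands for the 45S precursor, had 4.01, 6.10 and 5.17 CPM along the stages and 1019, 80.6, 259 and 90.0 CPM in testicular sperm, like the rRNA rows above. Gm3893, the most abundant gene row of the germ cells, had 962, 678 and 522 CPM along the stages and 388, 850, 571 and 945 CPM in testicular sperm.

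Repeats took little of any library. L1MdTf_I, an active LINE-1 family, was highest in spermatocytes at 127 CPM, with 41.2 CPM in early and 36.6 CPM in late round spermatids and 35.3, 61.8, 37.0 and 85.4 CPM in testicular sperm. RLTR6I_MM, an endogenous retrovirus, had 181, 149 and 132 CPM along the stages and 72.3, 127, 85.1 and 154 CPM in testicular sperm. The LINE-1 row LX2B, one of the 2 RNAs lower in testicular sperm, had 8.97, 33.1 and 33.4 CPM along the stages and 9.71, 7.70, 5.56 and 8.22 CPM in testicular sperm. The other was Mob2, with 7.57, 14.2 and 16.1 CPM along the stages and 1.45, 3.52, 1.79 and 4.27 CPM in testicular sperm, and both are named because they passed the rule.

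The one comparison with replicates on both sides was between testicular sperm (n = 4) and cauda sperm (n = 7), the sperm stored at the end of the epididymis. Of the cauda sperm titles, 6 carry the numbers 262, 26 and 27, each at 9 and at 12 weeks, and the labels do not say whether a shared number marks related animals. piRNA reads made up 55.3% ± 21.9 of testicular sperm libraries and 2.70% ± 1.04 of cauda sperm libraries (SD, n = 4 and 7), and tRNA fragments 3.85% ± 2.83 and 91.1% ± 4.03. For piRNA, microRNA, rRNA and tRNA the 2 groups did not overlap (exact two-sided permutation p = 0.00606, the smallest this design allows, 0.00909 adjusted over 6 classes). The repeat share was also higher in testicular sperm (exact permutation p = 0.0121, 0.0145 adjusted), and the gene share did not pass (1.44% ± 0.0881 in testicular sperm and 1.13% ± 0.673 in cauda sperm, exact permutation p = 0.424). Without cauda sperm 2 the gene difference was 0.547 points (exact permutation, adjusted p = 0.00952). Among the libraries that share the title number of the germ cells (2 testicular and 6 cauda sperm) the differences were 70.7 points for piRNA and −88.4 points for tRNA (exact permutation, adjusted p = 0.0857), where no p below 0.0714 is possible. Cauda sperm was also averaged by the numbers 262, 26 and 27 in its titles, an alternative chosen after seeing the data (4 against 4 values, smallest possible p 0.0286). The differences were then 52.8 points for piRNA and −87.7 points for tRNA (exact permutation, adjusted p = 0.0343). Since the labels do not say that libraries are separate animals, these p-values measure the spread between libraries.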

How the data were processed

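Small RNA of under 40 nt from 7 mouse libraries was analysed: 3 germ cell libraries and 4 testicular sperm libraries of 4842250 to 22190669 reads, with cauda sperm (n = 7), mock-fused and whole testicular sperm and testis tissue for comparison. The deposited tables hold raw read counts per microRNA hairpin, piRNA, tRNA, rRNA and repeat row. Gene rows hold expected counts in the deposited tables, not all whole, which were rounded for scaling factors and intervals only. The build is mm10, per the submitters' processing notes; the aligner, the counter, the handling of reads with several matches and the use of strand are not given in the sources used here. Overlapping or near-identical genes may therefore share reads.

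Groups were taken from the labels. The series' tables hold 94 further library columns, which were not used. Counts were divided by the library total (CPM) or by the total of the class. The 467 piRNA rows were summed to 214 loci and the 435 tRNA rows to 53 isoacceptors, since rows of a locus would otherwise be counted apart; the plan had named piRNA rows. Among gene rows, 27 whose symbols had become dates, at most 0.00264% of reads, were left out. Ratios used a floor of 3 counts where a library had none. Stages were compared by size (4-fold, 10 CPM in the higher stage), since 1 library per stage allows no test. Class shares of testicular and cauda sperm were compared with the exact two-sided permutation test, Benjamini-Hochberg adjusted over 6 classes. Replicate numbers are names in accession order. Positions and sequences are from RefSeq (GRCm38.p6).

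RNAs were named by rule: the 5 highest in mean per class, the 5 largest differences in each direction per step among microRNAs, piRNA loci, tRNA isoacceptors and genes of at least 100 CPM in the higher stage, and the 4 most abundant members of each of 26 lists. Others are named because they passed the 4-fold rule, lie beside a named RNA or were singled out after their values were seen. The members and lists were chosen with earlier results of these data known. Alternatives were edgeR 4.0.16 TMM and DESeq2 1.42.0 size factors, other minima and folds, other denominators and left-out libraries; the steps were tested on simulated data. Tools were Python 3.11.15, numpy 2.4.6, pandas 2.3.3, scipy 1.17.1, matplotlib 3.10.9 and R 4.3.3.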

Additional observations from a re-analysis of the deposited data

Results flagged for a closer look

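Of 104 values examined for a library far from the others of its group, 10 stood out. The values overlap, since Clu is part of the Sertoli sum and Gpx5 of the epididymal sum. Some RNAs were also named after their values were seen, so the number cannot be set against chance. Testicular sperm 1 was the outlying library for 8 of the 10. Its Sertoli cell mRNA fragments summed to 39.4 CPM, with the next library at 2.66 CPM, and Clu, made by Sertoli cells and by the epididymis, was at 37.4 CPM with the next at 2.29 CPM. Its epididymal mRNA fragments summed to 131.8 CPM with the next at 5.73 CPM, led by Gpx5, a secreted peroxidase of the epididymis, at 89.4 CPM with the next at 2.54 CPM. Hba-a2, an alpha globin, was at 96.03 CPM with the next at 15.9 CPM, and nuclear long RNAs summed to 29.6 CPM with the next at 11.5 CPM. The piRNA locus pi-Ipmk was at 799.6 CPM with the next at 154.8 CPM, and the isoacceptor SerAGA at 1157 CPM with the next at 271.5 CPM. Testicular sperm 3 stood out for Snord68, at 54.3 CPM with the next library at 5.37 CPM. Cauda sperm 2 stood out for the share of gene fragments, 2.51% with the next at 1.28%.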

How the results depend on the processing

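Between stages, counts of RNAs past 4-fold depended on the minimum and the fold. With a minimum of 50 CPM, early round spermatids against spermatocytes had 0 higher and 0 lower, late against early 0 and 0, testicular sperm against late round spermatids 79 and 0, and testicular sperm against spermatocytes 96 higher. With no minimum these were 90 and 22, 23 and 37, 720 and 10, and 927 and 3. At 2-fold they were 21 and 12 for the first step, 4 higher for the second, 191 and 109 for the third, and 72 lower against spermatocytes. With testicular sperm 2 and 4, which share the title number of the germ cells, 68 were higher than in late round spermatids and 88 than in spermatocytes, and with rows as deposited, an alternative chosen after seeing the data, 249 and 305. TMM factors gave 4 lower than late round spermatids. Leaving out 1 testicular sperm library at a time gave 94 to 156 higher and 2 to 6 lower than late round spermatids, and 128 to 189 and 1 to 3 against spermatocytes.

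The difference in gene share between testicular sperm and late round spermatids was −0.0352 points, turned to 0.466 points without rRNA and to 0.0876 points without the red cell rows (chosen after seeing the data), and lay between −0.0615 and −0.00364 points with 1 library left out. That in repeat share was 0.00294 points, 0.0307 points without rRNA, and −0.00355 to 0.0116 points with 1 library left out. As a share of their own class, 27 microRNAs and 27 piRNA loci were highest in spermatocytes and 69 microRNAs, 129 piRNA loci and 22 isoacceptors in testicular sperm. On that denominator the log2 ratio of testicular sperm to late round spermatids turned to −0.68 for the X-linked cluster, −0.42 for mir-17-92 and paralogs, −0.55 for mir-183, mir-96 and mir-182, −0.18 for mir-30, −0.082 for endothelial microRNAs, 0.45 for gene-named piRNA loci, −0.14 for ValCAC, −0.51 for GluCTC, −0.11 for ValAAC and −0.43 for 5S. Nuclear long RNAs turned to −0.28 in testicular sperm 2 and 4 and histone genes to −0.070 with TMM factors. The cause of these turns was not tested.

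Testicular minus cauda sperm, within that title number, was 70.7 points for piRNA, 3.98 for microRNA, 13.4 for rRNA, −88.4 for tRNA and 0.0585 for repeats, where 2 against 6 libraries cannot reach the threshold. The gene difference lay between 0.226 and 0.547 points with 1 library left out. For single RNAs and lists, counting each value once per alternative, 518 checks moved by less than the spread or kept their call, 72 moved by more and 12 turned the sign. Averaging cauda sperm by the numbers 262, 26 and 27 in its titles changed no call. No paired analysis was possible because each germ cell stage has 1 library and replicate numbers are only names in accession order.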
